A study of Mus musculus with 32 samples.

Results

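Prostaglandins and leukotrienes are made from arachidonate in steps, and the 10 genes described here cover those steps: Pla2g4a for its release, Ptgs1 and Ptgs2 for the cyclooxygenase step, Ptges, Ptgds and Hpgds for the terminal prostaglandins, Alox5, Alox5ap and Ltc4s for the leukotrienes, and Ptger4 for a receptor. They were chosen by name for these roles, with earlier results of these data known, and are 10 of the 42524 genes in the table of read counts. All 10 had enough reads to pass the filter on low counts at both ages.

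RNA was measured in spinal cord of 32 mice, 4 in each of 8 groups. WT mice were littermates on the C57BL/6J background, and G93A mice were of the line B6-Tg(SOD1-G93A)1Gur/J, in which a human SOD1 gene with the G93A mutation is driven by the human promoter and causes a disease of motor neurons. Mice of both genotypes were either untreated or given OKN-007, a nitrone compound, in the drinking water. The labels give the earlier age as 90 days and the methods as 95 days, and 95 days is used here. The later age was 155 days. The dose of the sequenced mice is not assigned here, no group carries a cell-type specific allele, and the mouse table has no row for the human transgene, so the genotype was not checked by its level. Each library is bulk RNA of a piece of cord, and the labels name no sequencing or library batch, so the ages cannot be told apart from anything else that differed between both sets of libraries.

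Arachidonate is cut from membrane lipids by phospholipases. The cyclooxygenases turn it into an unstable prostaglandin, which terminal synthases convert to PGE2, PGD2 and others, while 5-lipoxygenase, presented with its substrate by an activating protein, starts the leukotrienes. In the central nervous system the hematopoietic PGD synthase, cyclooxygenase-1 and the 5-lipoxygenase genes are known from microglia and other myeloid cells, whereas the lipocalin-type PGD synthase is known from oligodendrocytes and the meninges.

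The promoter windows of Hpgds, Alox5 and Ptgs1 are shown because these members differed most clearly between genotypes at 155 days and differed in this between ages, and that of Ptgs2 because it is the second cyclooxygenase gene and did not pass the test. Each runs from 250 bases before to 50 bases after the start site (RefSeq, GRCm38.p6), 5′ to 3′ on the strand of the gene. The windows are chr6:65144681-65144980 (minus strand) for Hpgds, chr6:116461129-116461428 (minus) for Alox5, chr2:36230176-36230475 (plus) for Ptgs1 and chr1:150099781-150100080 (plus) for Ptgs2. Capitals mark the letters GAGGAA, the purine-rich core that PU.1 binds, and GGGCGG, a GC box. Both were searched on both strands, as was TATAAA, and no match overlapped another in these 4 windows.
Hpgds: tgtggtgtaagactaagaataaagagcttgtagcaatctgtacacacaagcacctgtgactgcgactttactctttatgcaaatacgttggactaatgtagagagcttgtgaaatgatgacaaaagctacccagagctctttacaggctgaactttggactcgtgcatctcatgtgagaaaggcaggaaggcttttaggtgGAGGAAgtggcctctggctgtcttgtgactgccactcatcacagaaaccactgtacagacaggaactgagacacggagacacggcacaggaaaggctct
Alox5: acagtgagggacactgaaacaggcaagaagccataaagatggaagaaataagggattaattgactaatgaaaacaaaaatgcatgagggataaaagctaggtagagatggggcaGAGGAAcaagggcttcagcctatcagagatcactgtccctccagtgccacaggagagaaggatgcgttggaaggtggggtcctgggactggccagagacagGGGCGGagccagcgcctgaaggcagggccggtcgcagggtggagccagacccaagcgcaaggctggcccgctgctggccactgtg
Ptgs1: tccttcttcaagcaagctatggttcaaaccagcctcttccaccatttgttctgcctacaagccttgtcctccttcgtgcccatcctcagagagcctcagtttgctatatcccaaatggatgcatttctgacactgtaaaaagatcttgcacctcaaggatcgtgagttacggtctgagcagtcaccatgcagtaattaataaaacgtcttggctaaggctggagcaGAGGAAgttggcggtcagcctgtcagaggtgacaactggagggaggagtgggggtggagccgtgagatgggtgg
Ptgs2: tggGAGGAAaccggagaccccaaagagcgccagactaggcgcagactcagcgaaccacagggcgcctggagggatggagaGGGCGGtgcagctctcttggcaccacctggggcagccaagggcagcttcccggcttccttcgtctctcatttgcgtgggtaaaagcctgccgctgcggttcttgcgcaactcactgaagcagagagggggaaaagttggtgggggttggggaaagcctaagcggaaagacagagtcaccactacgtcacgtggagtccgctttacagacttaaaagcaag

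GAGGAA lay at position -49 from the start site in Hpgds, at -136 in Alox5, at -24 in Ptgs1 and at -247 in Ptgs2, each on the strand of the gene. Of the 10 members, 9 had a window, and 6 of the 9 held GAGGAA (Ptgs1, Ptgs2, Ptges, Hpgds, Alox5 and Ltc4s), against 28.3% of the 32851 mouse windows of the same length. GGGCGG was found in 4 members (in Ptger4 with 2 of 4 matches overlapping), against 35.7% of all windows, and TATAAA in 1 (a second window of Pla2g4a), against 13.6%. These matches describe letters only.

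The libraries held 19701722 to 30138257 counted reads. Levels are given in CPM, read counts scaled to a common library size after TMM normalization. A count of 0 in the smallest library allows up to 3 reads, or 0.152 CPM, a limit that covers counting error only. Members differed widely in depth, from 9449 to 11406 reads of Ptgds per untreated WT mouse at 95 days down to 5 to 30 reads of Ptgs2 in any mouse, so values of Ptgs2, Alox5 and Ltc4s carry the larger error. Reads of Alb, a liver gene, reached 4283 in replicate 12 of untreated G93A mice at 155 days and 2551 in replicate 15 of the treated ones. Without either mouse, no member gained or lost a call in the comparisons of genotype at 155 days. Neuron markers were present in every group but lower in G93A mice at 155 days. They summed to 3473 to 4055 CPM in untreated WT and 2100 to 2901 CPM in untreated G93A mice at that age. In treated mice these sums were 3502 to 3858 CPM in WT and 1788 to 2551 CPM in G93A. The 8 motor neuron genes summed to 265 to 320 CPM in untreated WT and 155 to 181 CPM in untreated G93A mice at 155 days. The part of these differences in the members' levels was not tested.

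Per kilobase of exon, Ptgds was by far the highest of the 10 genes, at 201 ± 64.8 CPM per kb in untreated WT mice at 155 days (SD, n = 4). Pla2g4a followed at 2.41 ± 0.39, Alox5ap at 1.90 ± 0.43, Ptgs1 at 1.58 ± 0.25, Ltc4s at 1.21 ± 0.45, Hpgds at 1.18 ± 0.10, Ptger4 at 0.69 ± 0.018 and Ptges at 0.54 ± 0.093. Alox5 at 0.16 ± 0.038 and Ptgs2 at 0.14 ± 0.049 were the lowest. In this order Alox5ap and Ptgs1, Ptgs1 and Ltc4s, Ltc4s and Hpgds, and Alox5 and Ptgs2 differed by less than 1 SD, and the ranges of Pla2g4a and Alox5ap overlapped. In untreated G93A mice of the same age, Hpgds was at 5.21 ± 1.5 CPM per kb, Alox5ap at 4.03 ± 0.85 and Ptgs1 at 3.34 ± 0.76, above Pla2g4a at 2.47 ± 0.68, while Alox5 was at 0.74 ± 0.13 and Ptgs2 stayed lowest at 0.15 ± 0.058.

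**Figure D1:**
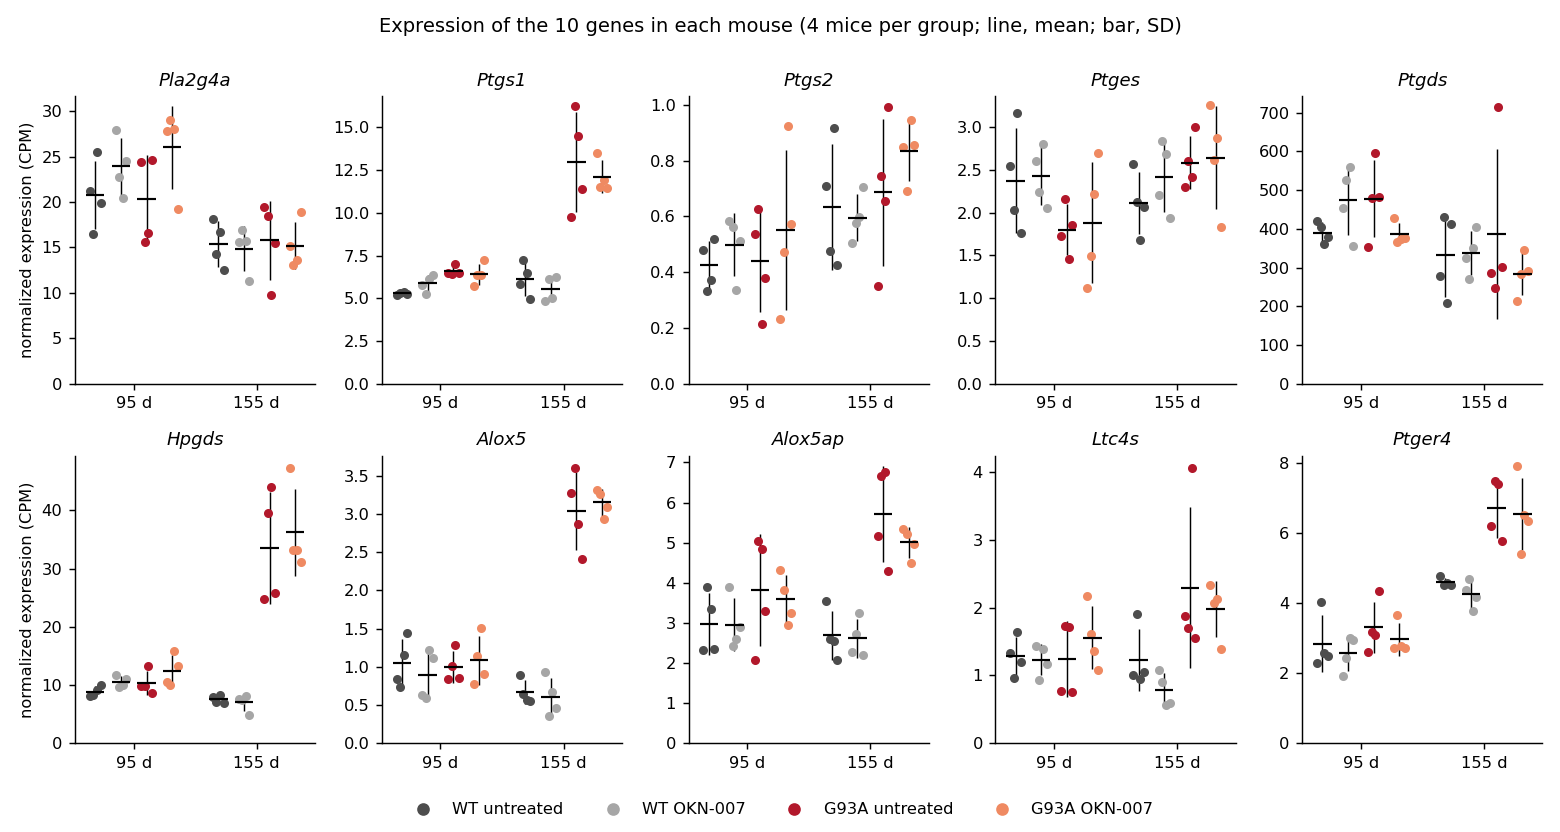
Expression of each gene in CPM (vertical axis, from 0) in every mouse of the 8 groups (colour, genotype and treatment), with the mean (line) and SD (bar) of 4 mice, at 95 and 155 days. At 155 days the G93A points of Hpgds, Ptgs1, Alox5, Alox5ap and Ptger4 lie above all WT points, and those of Pla2g4a, Ptgs2, Ptges and Ptgds overlap them.

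The first question was whether the disease changes these genes. At 155 days, 6 of the 10 members were higher in untreated G93A than in untreated WT mice and 0 were lower (edgeR's quasi-likelihood test with Benjamini-Hochberg adjustment over 18675 genes). Of all genes tested, 39.5% passed, 21.3% as higher. Hpgds and Alox5 rose by more than 4-fold, Ptgs1 and Alox5ap by about 2-fold, and Ltc4s and Ptger4 by less. The median log2 fold change of the 10 was 0.74, against 0.00015 over all genes. In 5 members the 4 G93A mice lay above all 4 WT mice, which held for 17.4% of all genes. The same 6 members were higher in G93A mice when both genotypes had received OKN-007, where 41.5% of all genes passed, 23.3% as higher, and the median of the 10 was 0.82. In these treated mice the 6 did not overlap between genotypes, which held in this direction for 22.6% of all genes. The members were chosen with earlier results of these data known, so the shares of all genes give a setting and not a test.

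The member for arachidonate release was not called. Pla2g4a, which encodes the cytosolic phospholipase that frees arachidonate (ENSMUSG00000056220, chromosome 1 from 149829618 to 149961290 of GRCm38), was at 18.1, 14.2, 16.7 and 12.5 CPM in untreated WT mice at 155 days. Untreated G93A mice had 19.4, 18.5, 9.80 and 15.5 CPM. The groups overlapped fully, and the log2 fold change was 0.054 (95% interval -0.33 to 0.43, adjusted p = 0.839).

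The constitutive cyclooxygenase rose and the inducible one was not called. Ptgs1, cyclooxygenase-1 (ENSMUSG00000047250, chromosome 2 from 36230426 to 36252272), was at 5.81, 7.24, 6.46 and 4.95 CPM in untreated WT mice at 155 days. In untreated G93A mice it was at 9.76, 16.3, 14.5 and 11.4 CPM, so each G93A mouse was above each WT mouse. The change was 2.15-fold (log2 1.10, SE 0.15, adjusted p = 1.49e-05). After OKN-007 the levels were 4.85, 6.15, 5.0 and 6.25 CPM in WT and 13.5, 11.5, 11.9 and 11.5 CPM in G93A mice, a log2 fold change of 1.16 (SE 0.15, adjusted p = 7.30e-06). Ptgs2, cyclooxygenase-2 (ENSMUSG00000032487, chromosome 1 from 150100031 to 150108227), had 11 to 24 reads per untreated WT mouse and 9 to 30 per untreated G93A mouse. Its levels of 0.43 to 0.92 CPM and 0.35 to 0.99 CPM overlapped, and the log2 fold change was 0.14 (95% interval -0.51 to 0.80, adjusted p = 0.747). In treated mice the highest WT level was 0.71 CPM and the lowest G93A level 0.69 CPM (log2 0.52, interval -0.12 to 1.15, adjusted p = 0.188). With so few reads, these intervals leave room for changes up to their upper bounds.

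Among the terminal synthases, only the hematopoietic PGD synthase passed. Hpgds, a cytosolic enzyme that makes PGD2 (ENSMUSG00000029919, chromosome 6 from 65117293 to 65144908), was at 7.90, 7.11, 8.37 and 6.95 CPM in untreated WT mice at 155 days. Untreated G93A mice had 24.8, 39.5, 43.9 and 25.8 CPM, and the lowest of these was well above the highest WT mouse. The change was 4.45-fold (log2 2.15, SE 0.19, adjusted p = 5.89e-08). In treated mice Hpgds was at 7.68, 7.48, 8.14 and 4.84 CPM in WT and 47.2, 33.3, 33.2 and 31.1 CPM in G93A mice, with the highest value in replicate 13. This was 5.29-fold (log2 2.4, SE 0.20, adjusted p = 1.21e-08).

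Ptgds, the secreted lipocalin-type synthase of the same product (ENSMUSG00000015090, chromosome 2 from 25466709 to 25470046), was at 278, 430, 208 and 412 CPM in untreated WT and 285, 247, 714 and 302 CPM in untreated G93A mice. The groups overlapped, with replicate 11 far above the other G93A mice, and the log2 fold change was 0.24 (95% interval -0.34 to 0.81, adjusted p = 0.526). Without replicate 11 it was -0.24. When the fit also held the mean level of caudal Hox genes, which mark the position along the cord, it was 0.92 and passed (adjusted p = 0.0187). Summed caudal Hox levels were 295 to 331 CPM in untreated WT and 187 to 267 CPM in untreated G93A mice. These ranges did not overlap, so this fit cannot cleanly separate genotype from the Hox level. The part of that level in the result was not tested further. In treated mice the log2 fold change of Ptgds was -0.22 (interval -0.79 to 0.36). Ptges, the inducible PGE2 synthase (ENSMUSG00000050737, chromosome 2 from 30889471 to 30929863), was at 1.68 to 2.57 CPM in untreated WT and 2.30 to 3.01 CPM in untreated G93A mice, a log2 fold change of 0.31 (interval -0.11 to 0.72, adjusted p = 0.233), and of 0.17 in treated mice (adjusted p = 0.525).

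All 3 leukotriene genes were called in both comparisons. Alox5, 5-lipoxygenase (ENSMUSG00000025701, chromosome 6 from 116410077 to 116461178), had 0.89, 0.65, 0.57 and 0.56 CPM in untreated WT and 3.28, 3.6, 2.87 and 2.41 CPM in untreated G93A mice at 155 days. These were 15 to 24 and 70 to 87 reads per mouse, and the groups were wide apart. The change was 4.56-fold (log2 2.19, SE 0.24, adjusted p = 8.47e-07). Treated mice had 0.93, 0.36, 0.67 and 0.46 CPM in WT and 3.32, 3.27, 2.94 and 3.09 CPM in G93A, 5.35-fold (log2 2.42, SE 0.24, adjusted p = 2.18e-07). Alox5ap, the protein that presents arachidonate to 5-lipoxygenase (ENSMUSG00000060063, chromosome 5 from 149264767 to 149288153), was at 3.54, 2.60, 2.56 and 2.07 CPM in untreated WT and 5.16, 6.66, 6.77 and 4.30 CPM in untreated G93A mice. It did not overlap, and rose 2.14-fold (log2 1.10, SE 0.19, adjusted p = 0.000121). In treated mice it ranged from 2.19 to 3.25 CPM in WT and from 4.49 to 5.35 CPM in G93A (log2 0.97, SE 0.19, adjusted p = 0.000337).

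Ltc4s, the enzyme that joins leukotriene A4 to glutathione (ENSMUSG00000020377, chromosome 11 from 50236461 to 50238616), was the least firm of the calls. Untreated WT mice had 1.01, 1.91, 0.96 and 1.05 CPM and untreated G93A mice 1.88, 1.70, 4.06 and 1.55 CPM. Replicate 2 of the WT and replicate 11 of the G93A mice stood apart from their groups, and the groups overlapped. The log2 fold change was 0.92 (SE 0.32, adjusted p = 0.0289). Without replicate 11 it was 0.50 (adjusted p = 0.196), and the call was also lost without WT replicate 1, 3 or 4. In treated mice the values of 1.09, 0.90, 0.56 and 0.60 CPM in WT lay below the 2.34, 2.07, 2.13 and 1.38 CPM in G93A (log2 1.37, SE 0.33, adjusted p = 0.00279), and this call held without each mouse in turn. Ltc4s shares 268 exon bases with Gm26542 (140 reads in all mice), Alox5ap 189 with the antisense Gm19719 (199 reads) and Ptgs1 148 with Gm43621 (5 reads). The strand setting of the counting is not given in the sources used here.

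The receptor rose least. Ptger4, the EP4 receptor for PGE2 (ENSMUSG00000039942, chromosome 15 from 5206661 to 5244187), was at 4.77, 4.51, 4.58 and 4.53 CPM in untreated WT and 6.21, 7.49, 7.38 and 5.78 CPM in untreated G93A mice. No G93A mouse was as low as a WT mouse. The log2 fold change was 0.56 (SE 0.13, adjusted p = 0.00221), and it was 0.42 in the fit that held the caudal Hox level, where it did not pass (adjusted p = 0.0712). The Hox level itself differed between the genotypes, as given for Ptgds. Treated mice had 4.38, 4.68, 3.77 and 4.17 CPM in WT and 7.90, 5.41, 6.51 and 6.35 CPM in G93A (log2 0.66, SE 0.13, adjusted p = 0.000492). Ptger4 overlaps Ttc33 (86697 reads in all mice) on the other strand by 82 exon bases and a pseudogene (289 reads) by 1015. Ptger4 itself had 43 to 233 reads per mouse, so part of its reads is uncertain if strand was not used.

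**Figure D2:**
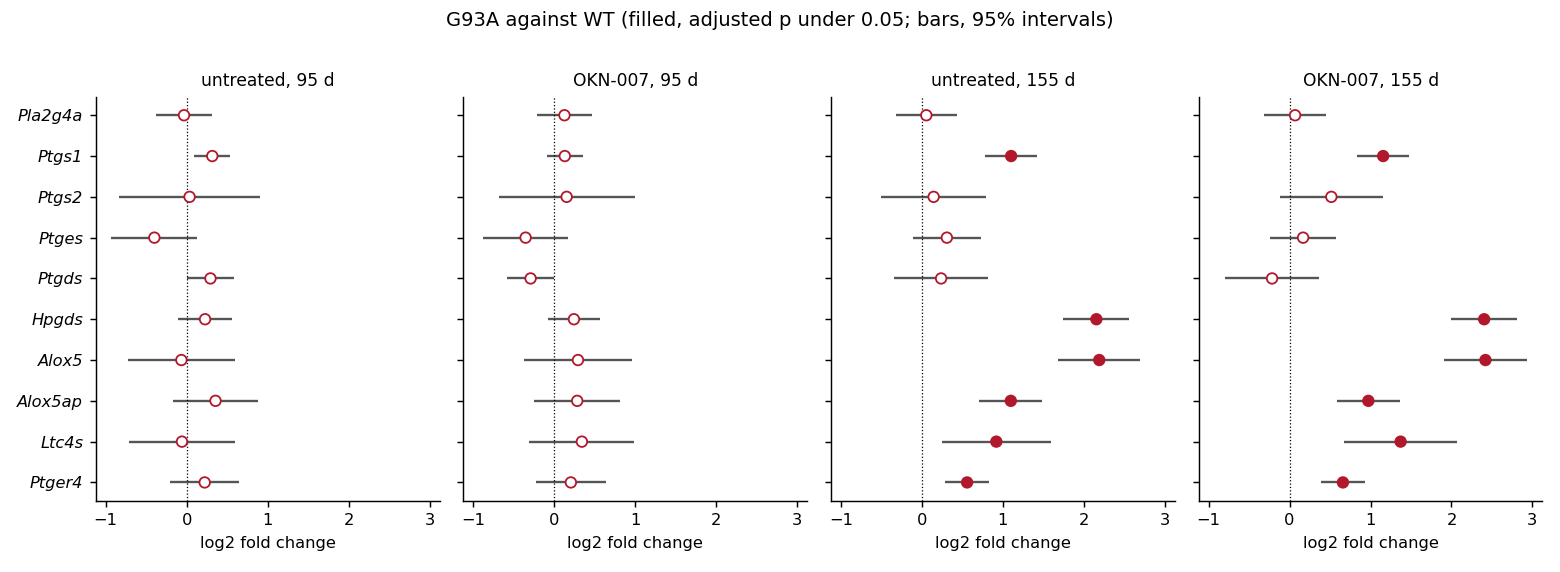
Log2 fold change of G93A against WT mice (horizontal axis) with 95% intervals for the 10 genes, in untreated and treated mice at 95 and 155 days, 4 mice per group. Filled points passed an adjusted p of 0.05, which 0 members did at 95 days and 6 did at 155 days in both panels.

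Markers of microglia and of several other cell types moved with these genes, while summed neuron and motor neuron genes were lower in G93A mice, as given above. The 12 microglial genes summed to 360 to 433 CPM in untreated WT and 1351 to 2177 CPM in untreated G93A mice at 155 days, and all 12 passed as higher, with a median log2 fold change of 2.02. Hpgds (2.15) and Alox5 (2.19) were close to that median, and Ptgs1, Alox5ap, Ltc4s and Ptger4 (1.10, 1.10, 0.92 and 0.56) were below it. The spread in the list was wide, from 0.39 to 3.86. The 12 genes of disease-associated microglia all rose as well, with a sum that is mostly Apoe (mean of 3160 CPM in WT against 17300 CPM in G93A mice). Astrocyte genes summed to 4659 to 5173 CPM in the WT against 13740 to 17280 CPM in the G93A mice, and 7 of 8 rose. Of the genes of perivascular and border macrophages, 3 of the 7 tested rose (19.1 to 28.2 CPM against 8.33 to 11.1 CPM), and of those of the meninges 3 of 9 (85.7 to 144 CPM against 27.0 to 31.4 CPM). Over all genes, 39.5% passed in this comparison, 21.3% as higher, and the counts of these short lists are to be read beside that. Each of these sums separated the genotypes, as did Hpgds, Alox5, Ptgs1, Alox5ap and Ptger4 but not the other members. The part of any list in the members' changes was not tested. In bulk cord, more cells of a type and more RNA per cell cannot be told apart. The genes of mast cells, which can also express Hpgds and Ltc4s, summed to at most 0.58 CPM in any mouse. Cpa3 had 11 reads in all 32 mice, with 0 in 26 of them. Neutrophil genes summed to at most 5.05 CPM in any mouse, and 0 of the 2 that could be tested passed. The genes of platelets, which can also express Ptgs1, summed to 12.6 to 17.5 CPM in untreated G93A and 11.8 to 13.1 CPM in untreated WT mice. Which cells the members' reads came from was not tested.

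After the mean of each of the 8 groups was taken out, Hpgds followed the summed microglial level most closely over the 32 mice (Pearson r = 0.85), then Ptgs1 (0.62), Alox5ap (0.49), Ltc4s (0.44) and Alox5 (0.35). Ptger4, also called at 155 days, had an r of -0.075 with the microglial level. Its largest value was 0.545, with motor neuron genes. For Hpgds, Ptgs1, Alox5ap, Ltc4s and Alox5, other lists gave values of like size. Hpgds had an r of 0.74 with astrocyte, 0.72 with disease-associated microglia, 0.70 with platelet and -0.67 with neuron genes. Ptgs1 had an r of 0.56 with astrocyte genes, and Alox5ap of -0.51 with endothelial genes. Ltc4s was closer to border macrophage (0.52), mast cell (0.46) and neutrophil genes (0.45) than to microglia, and Alox5 to mast cell genes (0.40), although the mast cell sum rests on few reads. With the microglial level, Ptgds had an r of 0.017 and Pla2g4a of -0.17. The largest values of Ptgds were 0.46 with the caudal Hox level and 0.45 with border macrophage genes. Pla2g4a had an r of 0.62 with mature oligodendrocyte genes and, as strong, of -0.62 with the caudal Hox level, beside -0.47 with disease-associated microglia and -0.45 with mast cell genes. These values are descriptions, since both measures come from the same libraries and depth.

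**Figure D3:**
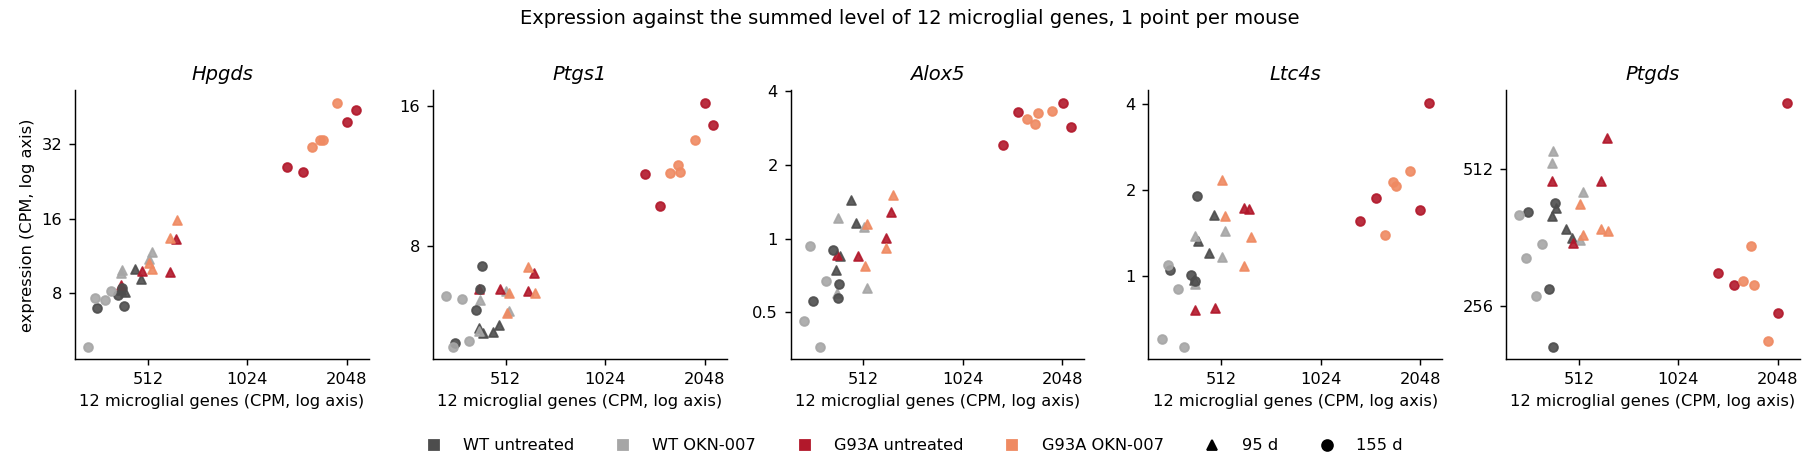
Expression of 5 of the genes (vertical axis, CPM, log scale) against the summed level of 12 microglial genes (horizontal axis, CPM, log scale) in each of 32 mice (colour, group; triangles, 95 days; circles, 155 days). The 8 G93A mice at 155 days lie apart on the right, high for Hpgds, Ptgs1 and Alox5 and in the range of the other mice for Ptgds except replicate 11 at 714 CPM.

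At 95 days, 0 of the 10 members passed in untreated mice, as did 0 of 18899 genes (edgeR's quasi-likelihood test), and DESeq2 and edgeR's likelihood ratio test also called 0 members. At an unadjusted p under 0.05, 2 members were higher, Ptgs1 and Ptgds, where 5.96% of all genes had such a p. Ptgs1 was at 5.19, 5.33, 5.4 and 5.23 CPM in WT and 6.46, 6.4, 7.0 and 6.47 CPM in G93A mice. The groups did not overlap, as in this direction for 1.19% of all genes, but the log2 fold change of 0.32 (SE 0.11) had an adjusted p of 0.822. Ptgds changed by 0.29 on the log2 scale (adjusted p = 0.822). Hpgds was at 8.10, 8.22, 9.12 and 10.03 CPM in WT and 9.80, 9.77, 13.3 and 8.67 CPM in G93A mice (log2 0.23, interval -0.10 to 0.56), and Alox5 at 0.74 to 1.44 and 0.85 to 1.29 CPM (log2 -0.065, interval -0.72 to 0.59). In mice given OKN-007, 0 members passed by any of the 3 tests, and 1 had an unadjusted p under 0.05 (Ptgds, log2 -0.29), against 3.95% of all genes. With both treatments averaged, a comparison added after the data were seen, 0 members passed, where 0.0265% of all genes did. Ptgs1 (log2 0.22), Hpgds (0.23) and Ptges (-0.38) then had an unadjusted p under 0.05, against 6.61% of all genes, and adjusted p of 0.544, 0.748 and 0.751.

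The G93A change was larger at 155 than at 95 days in 3 members. In a fit of all 32 mice, the difference of log2 fold changes in untreated mice was 2.24 for Alox5 (SE 0.39, adjusted p = 6.72e-05), 1.92 for Hpgds (SE 0.26, adjusted p = 1.60e-06) and 0.77 for Ptgs1 (SE 0.18, adjusted p = 0.00275). Of all genes, 21.2% passed this test, 12.9% upward. In treated mice the same 3 members passed, with 2.09 for Alox5, 2.13 for Hpgds and 0.99 for Ptgs1, where 23.0% of all genes did, 13% upward. Alox5ap (0.74, adjusted p = 0.0987), Ltc4s (0.97, adjusted p = 0.134) and Ptger4 (0.32, adjusted p = 0.367) were not shown to differ between the ages in untreated mice, although they were called at 155 days and not at 95 days.

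Between 95 and 155 days in WT mice, comparisons also added after the data were seen, Ptger4 rose in both treatments. In untreated mice it went from 2.28, 4.04, 2.57 and 2.48 CPM to 4.51 to 4.77 CPM (log2 0.69, SE 0.17, adjusted p = 0.00394), and it was the 1 member called, where 24.9% of all genes were, 15.3% as higher. In treated mice it rose by 0.72 (adjusted p = 0.00229), from 1.93 to 3.02 CPM up to 3.77 to 4.68 CPM. Pla2g4a fell by 0.69 on the log2 scale there (adjusted p = 0.00541), and Hpgds fell by 0.59 (adjusted p = 0.0158), where 31.3% of all genes passed, 17.8% as higher and 13.5% as lower. The call of Hpgds was lost without treated replicate 5 at 95 days or replicate 8 at 155 days, and that of Pla2g4a in the fit with the caudal Hox level. Mature oligodendrocyte genes summed to 36220 to 53410 CPM at 95 days and 20290 to 23570 CPM at 155 days in these mice. Their part in the fall was not tested.

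The second question was whether OKN-007 changes these genes. In none of the 4 comparisons of treated with untreated mice did a member pass, by edgeR's quasi-likelihood test, its likelihood ratio test or DESeq2, and the quasi-likelihood test called 0 of all genes in each. At an unadjusted p under 0.05, the count of members was 2 in G93A mice at 95 days, against 5.56% of all genes. It was 0 in G93A mice at 155 days (4.04% of all genes), in WT mice at 95 days (4.07%) and in WT mice at 155 days (2.94%). These 2 were Pla2g4a (log2 0.36, interval 0.011 to 0.70) and Ptgds (log2 -0.31, interval -0.60 to -0.018), both with an adjusted p of 0.837. Ptgds was at 353, 480, 596 and 482 CPM in untreated and 427, 366, 374 and 377 CPM in treated G93A mice, and the groups overlapped. Pla2g4a was at 24.4, 15.6, 16.6 and 24.6 CPM untreated and 27.8, 29.1, 28.0 and 19.3 CPM treated.

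In G93A mice at 155 days, the members that were high in G93A mice differed little after treatment. Hpgds changed by 0.13 on the log2 scale (95% interval -0.25 to 0.50), Alox5 by 0.066 (-0.38 to 0.51), Ptgs1 by -0.088 (-0.40 to 0.22), Alox5ap by -0.18 (-0.55 to 0.19), Ptger4 by -0.024 (-0.29 to 0.24) and Ltc4s by -0.19 (-0.84 to 0.45). For Hpgds this leaves room for a fold between 0.84 and 1.41, and for Ltc4s between 0.56 and 1.37. Of the other members, Ptgds changed by -0.44 (interval -1.02 to 0.14) and Ptgs2 by 0.28 (-0.35 to 0.91). In WT mice at 155 days the largest difference was that of Ltc4s, at -0.64 (interval -1.37 to 0.083), with an adjusted p of 1.

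The effect of OKN-007 was not shown to differ between genotypes or ages in any member by the 3 tests. At 95 days Ptgds moved by 0.28 in WT and -0.31 in G93A mice, a difference of -0.59 (SE 0.20, unadjusted p = 0.0076, adjusted p = 1), and it was the 1 member with an unadjusted p under 0.05 for this interaction, against 2.81% of all genes. At 155 days the count was 0 (2.34% of all genes), and it was 0 for the difference of the OKN-007 effect in G93A mice between ages (2.35%).

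**Figure D4:**
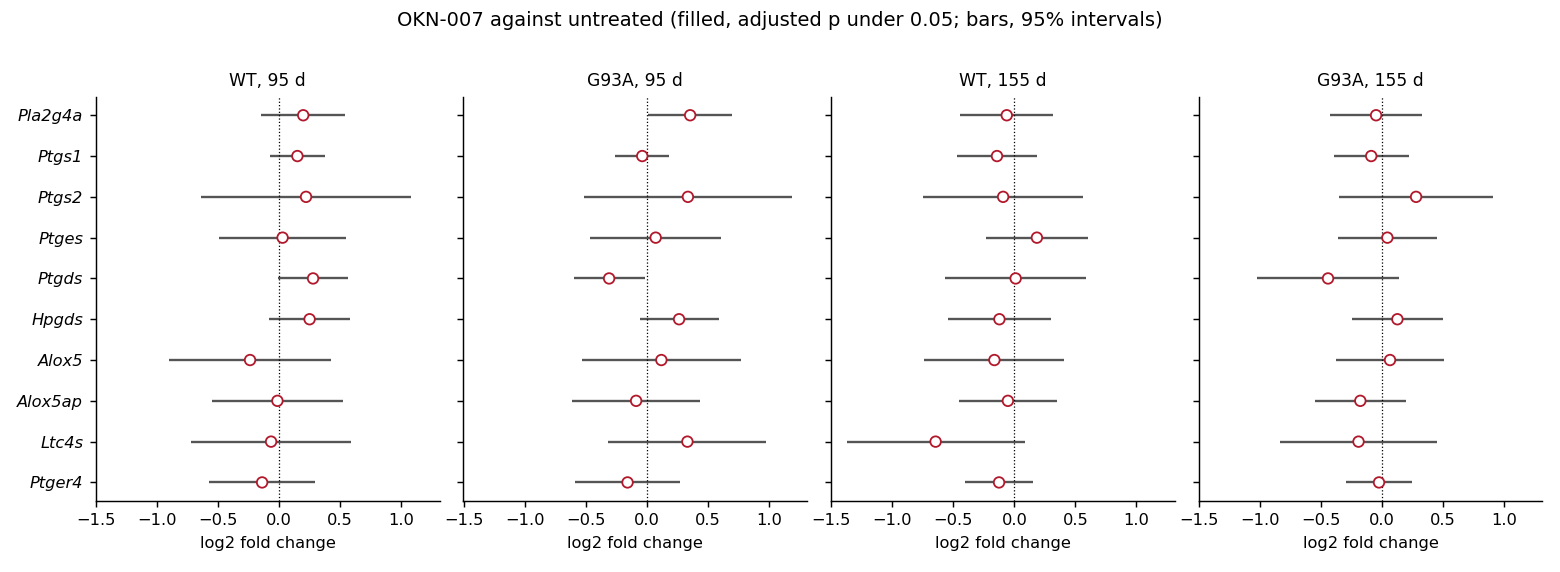
Log2 fold change of OKN-007 against untreated mice (horizontal axis) with 95% intervals for the 10 genes, in each genotype at both ages, 4 mice per group. All points are open, since 0 members passed an adjusted p of 0.05, and the intervals of Pla2g4a and Ptgds in G93A mice at 95 days do not cross 0.

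A list of 60 other genes of the pathway, grouped by role, gave the setting at 155 days. Of the 50 that could be tested in untreated mice, 15 were higher and 9 lower in G93A mice with a median log2 fold change of 0.18. Over all genes, 39.5% passed, 21.3% as higher and 18.2% as lower. In treated mice 18 were higher and 9 lower, where 41.5% of all genes passed, 23.3% as higher and 18.2% as lower. In the fit that held the caudal Hox level these were 12 higher and 3 lower in untreated and 13 higher and 4 lower in treated mice. The Hox level itself did not overlap between the genotypes at this age, so this fit cannot cleanly separate both. With lists this short, counts by role are a description, to be read beside those shares. Of 8 genes of inactivation and transport, 6 rose and 0 fell. Hpgd, which oxidizes prostaglandins to inactive forms, rose from 15.4 ± 2.85 to 97.6 ± 19.9 CPM (SD, n = 4; log2 2.67, SE 0.18, adjusted p = 9.00e-10), and Ptgr1, a prostaglandin reductase, by 1.25. Cyp4f18, a hydroxylase of leukotriene B4, was at 0.082 CPM in untreated WT mice, under the limit of 3 counts, and at 3.07 ± 1.47 CPM in G93A mice.

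Of 7 other terminal synthases, 2 rose and 1 fell. Tbxas1, thromboxane synthase, which takes the same substrate as Hpgds, rose from 4.13 ± 0.72 to 31.8 ± 10.3 CPM (log2 2.96, SE 0.22, adjusted p = 4.34e-09). Of 9 lipoxygenase and leukotriene genes tested, 1 rose and 3 fell. Ggt5, which converts leukotriene C4 to leukotriene D4, rose by 2.54 (SE 0.22, adjusted p = 2.76e-08), whereas Alox8 (-0.67), Alox12b (-0.71) and Mgst3 (-0.49) fell. In treated mice Alox8 and Mgst3 passed again, and Alox12b had a log2 fold change of 0.35 in the other direction (adjusted p = 0.33). Lta4h, which makes leukotriene B4, was at 55.4 ± 4.08 CPM in WT and 56.2 ± 3.38 CPM in G93A mice (log2 0.035, adjusted p = 0.718). Of 16 release genes, 4 rose and 2 fell, among them Pla2g15, a lysosomal phospholipase (1.43), and Pla2g4e (-0.61).

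Receptors moved in both directions. Of 10 tested, Cysltr1, a receptor of cysteinyl leukotrienes, rose by 1.51 (SE 0.28, adjusted p = 0.000322) and Cmklr1 by 1.27 (SE 0.16, adjusted p = 5.44e-06). The PGE2 receptors Ptger2 (-0.96, adjusted p = 0.0163) and Ptger3 (-0.79, adjusted p = 0.019) fell, unlike Ptger4, and so did Ptgdr, a receptor of PGD2 (-1.09, adjusted p = 0.0249). Ptger2 and Ptgdr were under 1 CPM in every group. In treated mice Cysltr1 (1.92), Cmklr1 (1.97) and Ptger3 (-0.69) passed again, and Ptger2 and Ptgdr did not. Ltb4r2 (1.93), Ptger1 (0.62) and Ptgfr (-0.57) also passed in treated mice. Ltb4r2 had few reads there, with means of 0.15 CPM in WT and 0.57 CPM in G93A mice. OKN-007 changed 0 of the 50 genes in G93A mice at 155 days, with 2 at an unadjusted p under 0.05, where 4.04% of all genes had such a p and 0 passed adjustment.

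**Figure D5:**
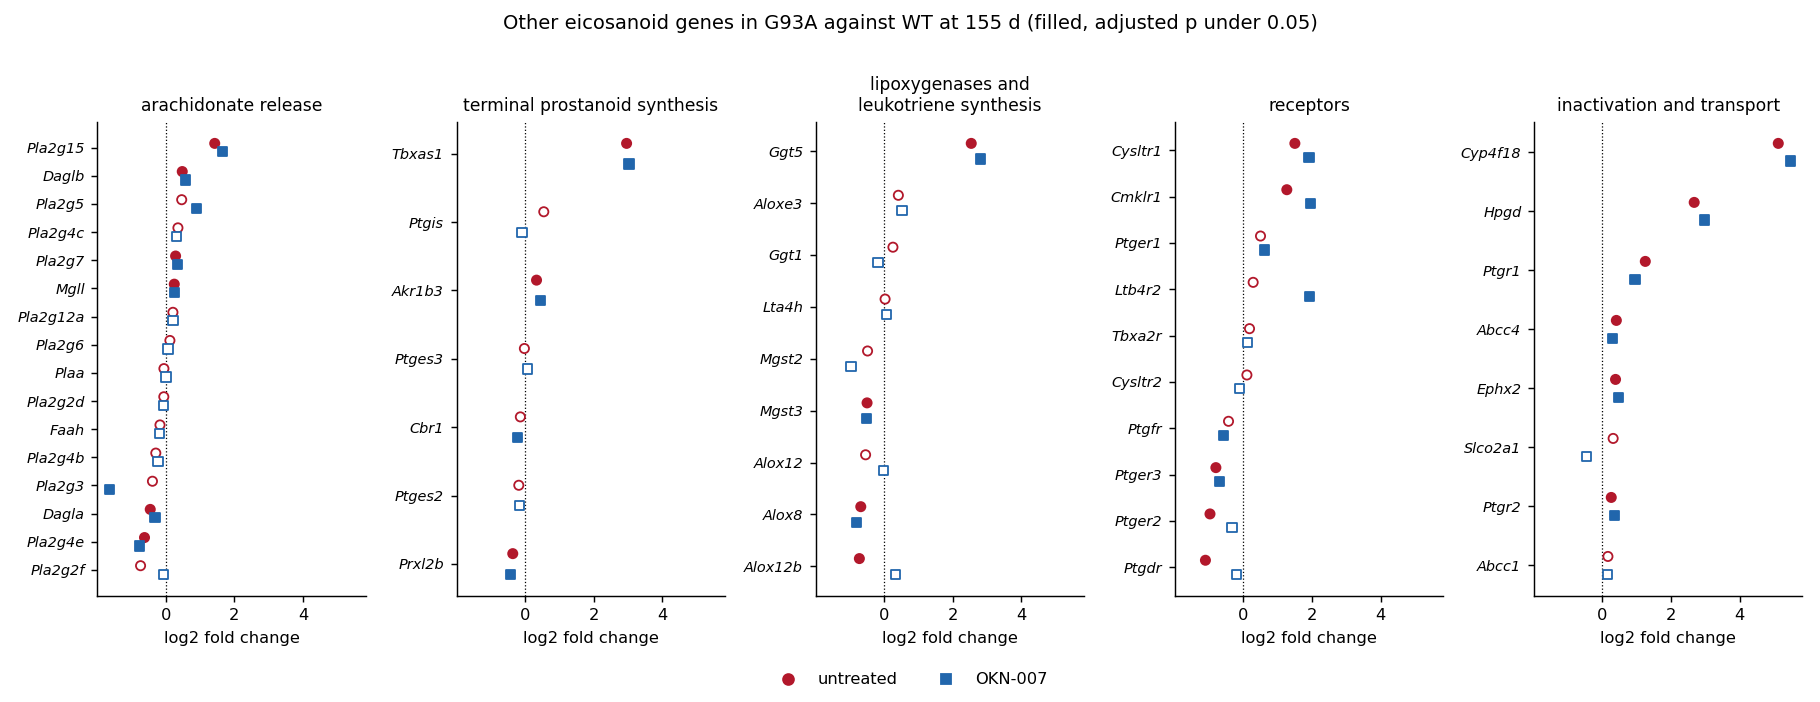
Log2 fold change of G93A against WT mice at 155 days (horizontal axis) for the tested genes of 5 role lists, in untreated (red circles) and treated mice (blue squares). Filled symbols passed an adjusted p of 0.05, as did 24 of 50 genes in untreated and 27 of 50 in treated mice, with Cyp4f18, Tbxas1, Hpgd and Ggt5 farthest to the right.

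The genes whose levels were most like each member over the 32 mice, by Pearson r of log2 CPM among 19829 genes, are given as a description, since the groups themselves set much of it. For Hpgds these were Csf3r, Pros1 and AU020206 (r = 0.985, 0.984 and 0.983), for Ptgs1 Vsir, Hbegf and Csf1r (0.97, 0.96 and 0.96), and for Alox5 Nfam1, Ly9 and Gpr65 (0.95, 0.95 and 0.95). For Alox5ap they were Selplg, Ldhd and Lgals1 (0.88, 0.87 and 0.87), for Ptger4 Sdcbp, Nrcam and Sdc3 (0.95, 0.95 and 0.94), and for Ltc4s Rras first (0.82). With group means taken out, Hpgds was most like Slco2b1 (0.85), Ptgs1 like Axl (0.77), Alox5 like AC148019.3 (0.77), Alox5ap like Tpt1-ps3 (0.71) and Ptger4 like Lcp1 (0.78). Among the members that did not pass, Pla2g4a was then most like Spg20 (0.89), Ptgds like Smox (0.87), Ptgs2 like Prrx1 (0.78) and Ptges like Fam71e1 (0.72).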

How the data were processed

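The authors sequenced poly(A) RNA of mouse spinal cord (TruSeq Stranded mRNA, NextSeq) and deposited raw counts per gene, not normalized. The methods name Trimmomatic, STAR, HTSeq and GENCODE M10 on GRCm38. The submitters' processing notes name STAR, featureCounts, edgeR, the mouse build GRCm39 (mm39) and also the human build hg38. The counter and build are therefore uncertain. Positions given here are those of GENCODE M21 (GRCm38), which paired 41203 of 42524 genes (96.9%) with a symbol. Levels are CPM with TMM factors over the 32 mice. Each age was fitted as 4 groups of 4 mice with edgeR 4.0.16 in R 4.3.3 (filterByExpr, TMM, glmQLFit, glmQLFTest, two-sided), with Benjamini-Hochberg adjustment over all genes tested and a threshold of 0.05. Differences between ages used a fit of all 32 mice on 19829 genes. No 2 libraries of a group were identical, the most alike 2 differing by 3.57 per gene (chi-square). Nothing says that litters or cages were separate, so p-values measure the spread between these mice. The scripts were tested on simulated data. The members and lists were chosen with earlier results of these data known. The genes named are all members, the 15 other pathway genes with the largest change among those past the threshold in untreated mice at 155 days, and for each member the most alike genes, of which 1 is not reported here. Lta4h was chosen after its values were seen, and so were Ltb4r2, Ptger1 and Ptgfr, which passed in treated mice. The exact permutation test planned for members under the filter was not needed. Alternatives were DESeq2 1.42.0, the likelihood ratio test, RLE factors, other filters, thresholds and samples in the fit, robust dispersions, a caudal Hox covariate (mean log2(CPM + 1)), a replicate block and leaving out each mouse.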

Additional observations from a re-analysis of the deposited data

Results flagged for a closer look

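A mouse far from the other 3 of its group (Dixon's test) was found in 8 of 80 groups of the 10 members, where chance gives 4. The highest values were those of Ptgds (714 CPM) and Ltc4s (4.06 CPM) in replicate 11 of untreated G93A mice at 155 days, of Ltc4s in replicate 2 of untreated WT mice at 155 days (1.91 CPM), of Hpgds in replicate 13 of treated G93A mice at 155 days (47.2 CPM), of Ptgs1 in replicate 11 of untreated G93A mice at 95 days (7.0 CPM), and of Ptger4 in replicate 2 of untreated WT (4.04 CPM) and replicate 14 of treated G93A mice (3.66 CPM) at 95 days. Pla2g4a was low in replicate 16 of treated G93A mice at 95 days (19.3 CPM). Replicate 11 at 155 days also had the highest summed microglial level of its group (2177 CPM).

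The G93A change differed between ages by the interaction test, with differences of log2 fold changes in untreated mice of 0.77 for Ptgs1, 1.92 for Hpgds and 2.24 for Alox5, and in treated mice of 0.99 for Ptgs1, 2.13 for Hpgds and 2.09 for Alox5.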

How the results depend on the processing

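No called result changed sign. Ptgds at 155 days in untreated mice, which was not called, went from 0.24 to -0.24 without replicate 11 of the G93A mice. The counts of 6 members called at 155 days stayed between 5 and 6 without each mouse in untreated mice and at 6 in treated mice, and the 3 members that differed by age stayed between 3 and 4 (untreated) and at 3 (treated). The added comparison of ages in WT mice gave 1 to 3 members (untreated, 1 with all mice) and 2 to 4 (treated, 3 with all mice). The other member counts stayed at 0. The pathway counts of 24 and 27 went from 17 to 27 and from 22 to 26. With an unadjusted p under 0.05, members called at 95 days numbered 2 (genotype, untreated), 1 (genotype, treated), 2 (OKN-007 in G93A), 1 (genotype by treatment) and 3 (treatments averaged), and those differing by age 6 (untreated) and 5 (treated). For ages in untreated WT mice, the count was 3 with the adjusted threshold at 0.10, 3 without adjustment, 2 with at least 10 counts in every mouse, 2 with only the groups compared and 0 with a log2 fold change of at least 1, which also gave 0 in treated WT mice. For the pathway a log2 fold change of at least 1 left 9 in both, and the caudal Hox covariate 15 (untreated) and 17 (treated); the causes were not tested. Of the members' single values under an alternative, 3373 kept their side of the threshold and direction, 19 lost it, 30 gained it and 192, not called, changed sign or moved. Same-numbered mice of both ages are different animals, and their deviations correlated between -0.22 and 0.13, so the numbers do not pair them. With a replicate block the counts by age were 3, 3 and 0, as without it. Depth limits Ptgs2, Alox5 and Ltc4s most.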
